A study of Mus musculus with 24 samples.

Results

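The constructs described here are copies of the bacterial DNA fragment FR1 that carry, at the same place, a binding motif for OCT4, a composite motif for OCT4 and SOX2 side by side (OCT4SOX2) or a motif for NANOG. They were chosen by their names in the pool tables, which gave 3 pairs of a wild-type (WT) and a scrambled (Sc) motif, or 6 of the 62 fragments. The single SOX2 pair is given only beside the composite. In Hi-TransMet, a library of such fragments was inserted at the silent β-globin locus of mouse cells by recombinase-mediated cassette exchange, and the methylation of each CpG of FR1 was read after bisulfite conversion, with a barcode in each read naming the construct. Fragments were inserted either untreated (−SssI) or after methylation in vitro with the bacterial enzyme M.SssI (+SssI), so that the former starts without CpG methylation and the latter can keep or lose it.

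The groups were embryonic stem cells of the TC-1 line (ESCs, strain C57BL/6 X 129S5), neuronal progenitors (NPs, same strain) obtained from ESCs at day 8 of a differentiation with retinoic acid, both under −SssI and +SssI, and ESCs without TET1, TET2 and TET3 (TET TKO, strain C57BL/6 X 129/sv) under +SssI. All of them carried the exchange site at the β-globin locus. Each group was entered here as 1 pool, whose reads were given in 3 to 9 numbered sets, called runs below. The paper's methods state that replicates, both technical and biological, were merged for coverage. The labels do not say whether a run is a replicate of either kind. The TET TKO cells also came from another strain background, so loss of the TET enzymes and strain cannot be told apart. Per the paper, reads were filtered by their non-CG methylation in the other libraries but not in those of TET TKO cells. This difference in processing cannot be told apart from the other 2 either. RNA was sequenced in 9 libraries, 3 for each of the 3 cell types. Single ESC lines with the composite are given beside the pools, and the premethylated WT line was treated with non-targeting siRNA.

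OCT4 (encoded by Pou5f1) is a POU-domain transcription factor that reads an octamer, SOX2 is an HMG-box factor, and both bind next to each other at many regulatory elements of pluripotent cells. NANOG is a homeodomain factor of the same network. Methylation of a CpG is copied onto the new strand after replication by DNMT1 and can be removed by oxidation through the TET enzymes, or by dilution when copying fails.

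FR1 held 23 CpGs outside these motifs, 18 of them upstream (−291 to −32 bp, counted from the motif) and 5 downstream (37 to 252 bp), and these parts were amplified and sequenced apart. Methylation of a fragment is the mean of its CpG values over the reads of all runs, and Δmet is the WT minus Sc difference averaged over CpGs, in percentage points. The ± value after a Δmet is the reach of its 95% interval to either side, in points, taken at each fragment's median number of reads, and covers counting error only. A CpG was called lower or higher where WT and Sc differed by at least 10 points with an adjusted p under 0.05 (Fisher's exact test, two-sided, adjusted over all CpGs of all 30 motif pairs of the pool), and 3 or more consecutive lower CpGs over more than 50 bp made a hypomethylated region (HMR). The tests on pooled reads treat reads as independent and neither runs nor cells as replicates, so they describe these pools. A fit with run as a term, given below, takes its error from the spread of all fragments over runs.

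The Sc fragments gave the level against which each pool was read, and WT fragments could lie above it. Over 31 Sc fragments it averaged 56.0% (SD 17.4) in ESCs under −SssI, 67.5% (SD 10.7) in ESCs under +SssI, 87.2% (SD 15.9) in NPs under −SssI, 87.0% (SD 6.57) in NPs under +SssI and 88.6% (SD 8.01) in TET TKO ESCs. Summed over fragments, the median reads of a CpG came to between 6348 and 24673.5 upstream and between 6573 and 47716 downstream in the 5 pools. Runs of a pool differed in methylation and most constructs were present in only some of them, so values per run stand beside the pooled ones. Runs whose reads agreed within sampling noise were counted as 1 run in those values, and are written joined, as runs 1+2+5.

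The composite OCT4SOX2 motif carried the clearest difference of the 3. Its WT fragment was less methylated than its Sc fragment in all 5 pools, by between 16.5 and 64.2 points, and the interval lay below 0 in each. Its HMRs reached furthest in ESCs under +SssI, where the region covered all 23 CpGs. Among the 30 motif pairs of a pool, ordered from the lowest Δmet, the composite had rank 6 in ESCs under −SssI, rank 1 in ESCs under +SssI, rank 4 and rank 5 in NPs under −SssI and +SssI, and rank 3 in TET TKO ESCs. The median Δmet of all 30 pairs lay between −12.6 points (ESCs under +SssI) and 1.39 points (TET TKO ESCs).

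In ESCs under −SssI the WT composite fragment had 12.1% methylation and the Sc fragment 56.9% (medians of 37 and 386 reads), so that Δmet was −44.8 points (± 11.6). The calls were 21 lower and 0 higher CpGs out of 23, against 45.2% of all CpGs tested in this pool called lower and 27.0% called higher. The interval lay below 0 for 50% of the motif pairs here, so a negative Δmet alone did not set the composite apart, and 50% of the pairs had an HMR. The difference ran from −79.0 points at −103 bp to 0.00 at 151 bp, where neither fragment was methylated. The HMR reached from −291 to 46 bp over 20 CpGs with a mean difference of −49.2 points. Upstream of the motif Δmet was −50.3 points (± 10.3), while downstream it was −25.0 (± 32.4), where the Sc fragment had as few as 11 reads.

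Nearly all WT reads of the composite in this pool came from run 4, in which the upstream CpGs were at 2.26% in the WT fragment (32 reads) and at 45.3% in the Sc fragment (38 reads). The WT value lay below those of all 25 other Sc fragments of run 4, which ranged from 15.9% to 54.5%. Within run 4 the difference was −43.1 points (± 16.6). The Sc fragment was at 60.5% in runs 1+2+5, above its own value in run 4. Downstream in run 4 the WT fragment was at 28.2%, below 18 of 23 other Sc fragments. Without run 4 no composite value remained in this pool.

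Among ESCs under +SssI the WT composite fragment was at 16.2% and the Sc fragment at 80.3% (medians of 504 and 411 reads), a Δmet of −64.2 points (± 5.01). All 23 CpGs were called lower, against 48.8% of the CpGs tested in the pool, and formed 1 HMR from −291 to 252 bp. The interval lay below 0 for 46.7% of motif pairs in this pool. The smallest difference was −35.2 points at −235 bp and the largest −89.1 points at −90 bp, where the WT fragment had 5.75% and the Sc fragment 94.9%. The CpGs nearest to the motif, at −32 and 37 bp, had 6.39% and 1.63% in the WT fragment. Upstream and downstream parts did not differ beyond counting error, with Δmet of −65.4 (± 4.91) and −59.8 points (± 7.07).

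The low level of the WT composite was found in each of its 3 runs of this pool. Its upstream CpGs were at 8.69% in run 3 (41 reads), 1.01% in run 6 (33 reads) and 20.1% in run 7 (430 reads). In runs 3 and 6 it lay below all 8 and all 10 other Sc fragments present there, whose lowest values were 27.8% and 40.9%. Run 7 held no Sc fragment upstream with enough reads. The Sc composite was at 74.3% in run 4 (12 reads) and 83.6% in run 5 (400 reads), so no run held both fragments and Δmet could not be computed within a run. Leaving out 1 run at a time gave Δmet between −77.5 and −52.9 points, with the interval below 0 each time.

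In NPs under −SssI the WT composite was at 56.0% and its Sc fragment at 92.3% (medians of 991 and 215 reads), a Δmet of −36.3 points (± 4.72). There were 21 lower and 0 higher CpGs, against 30.8% and 15.9% of all CpGs tested, and the HMR ran from −211 to 252 bp over 18 CpGs with a mean of −41.4 points. The interval lay below 0 for 36.7% of motif pairs. In this pool the downstream CpGs differed more, by −52.9 points (± 7.01), than the upstream CpGs, by −31.7 points (± 4.67). The lowest difference, −73.5 points, was at 151 bp, and the highest, −5.95 points, at −235 bp.

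The upstream WT reads of the composite in this pool came almost entirely from run 7, where the fragment was at 60.7% (997 reads), below the 4 other Sc fragments there, which lay between 88.1% and 94.7%. The Sc composite was at 92.7% in runs 2+9+10, 88.5% in run 11 and 93.5% in run 8. Downstream, the WT fragment was at 26.4% in run 9 (19 reads), below all 26 other Sc fragments of the run, and at 40.3% in run 7 (284 reads). Run 9 also held the Sc fragment, at 87.7% (80 reads), and the difference within it was −61.3 points (± 21.1). Without run 7 the comparison was limited to the downstream CpGs, where Δmet was −63.8 points (± 20.3).

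In NPs under +SssI the WT composite was at 60.7% and the Sc fragment at 86.7% (medians of 185 and 832 reads), a Δmet of −25.9 points (± 7.41). Of the CpGs 19 were lower and 0 higher, against 35.9% and 9.84% of all CpGs tested. The HMRs ran from −211 to −148 bp over 6 CpGs, with a mean of −33.6 points, and from −103 to 252 bp over 11 CpGs, with a mean of −30.3 points. Here 43.3% of motif pairs had an interval below 0. The CpG at 37 bp had the lowest difference, −50.1 points, and that at −235 bp the highest, −2.65 points.

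Over the runs of this pool the upstream values spanned 1.01 points for the WT and 7.98 for the Sc composite. The downstream values spanned 14.3 and 4.97 points. Upstream, the WT composite was at 65.2% in run 6 (42 reads) and 64.2% in run 7 (143 reads), below all 10 and all 6 other Sc fragments of those runs. The Sc composite lay between 84.4% and 92.3% in 4 other runs, with no overlap. Downstream, the WT values were 61.0% and 46.7% in the same runs and the Sc values lay between 74.9% and 79.8%. No run held both fragments, and leaving out 1 run at a time gave Δmet between −27.3 and −22.4 points.

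Across the 4 pools of wild-type cells, the upstream WT composite was present with at least 4 other Sc fragments in 6 runs and lay below all of them in 6. The same count was 2 of 10 for the WT OCT4 fragment, 0 of 5 for the WT NANOG fragment, 1 of 5 for the WT SOX2 fragment and 0 of 11 for the Sc composite. Downstream it was 3 of 4 for the WT composite and 0 of 9 for the Sc composite. The WT OCT4, NANOG and SOX2 fragments had 1 of 8, 1 of 6 and 0 of 5 downstream. In a weighted least-squares fit over all fragments of a pool with run as a term (upstream CpGs, weights by reads), the composite differed by −72.9 points (SE 15.1, adjusted p = 0.00031) in ESCs under +SssI. The estimates were −43.9 points (SE 11.4, adjusted p = 0.00144) in NPs under +SssI and −24.9 points (SE 7.77, adjusted p = 0.0106) in NPs under −SssI. In these pools no run held both composite fragments upstream with enough reads. The fit therefore compared them through other fragments and took the effect of a run as alike for all fragments. Its SE came from the residual spread over all fragments and runs of the pool. In ESCs under −SssI the estimate was −22.6 points (SE 24.1, adjusted p = 0.530) and was not called. This fit, adjusted over all pairs, called 6.67%, 3.45%, 16.7% and 17.9% of motif pairs lower in ESCs under −SssI and +SssI and NPs under −SssI and +SssI. With equal weights for all runs the call in NPs under −SssI was lost (−28.6 points, adjusted p = 0.334).

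The 2 NP pools shared the shape of the composite profile as well as its level. In both, the WT composite was least methylated at 151 bp, at 16.7% under −SssI and 15.1% under +SssI, and most methylated at −235 bp, at 93.1% and 91.9%. The low CpG at 151 bp was not particular to the composite, since it was also the least methylated of WT NANOG (52.2% and 32.3%) and of Sc OCT4 (51.2% and 71.9%) in both NP pools. Over the 23 CpGs, Pearson's r between the WT profiles of the NP pools was 0.929, and r between ESCs under +SssI and the NP pools was 0.836 and 0.771. For the Sc composite r between the NP pools was 0.455, and ESCs under +SssI and the NP pools had 0.423 and 0.818. These are descriptions over CpGs that share the FR1 sequence and, for the upstream part, the same reads. Upstream, most WT composite reads came from run 7 in ESCs under +SssI (430) and NPs under −SssI (997) and +SssI (143). They came from run 4 in ESCs under −SssI and from run 10 in TET TKO ESCs. The labels do not say what a run number stands for, so a likeness by run cannot be told apart from one by construct. The WT profile in ESCs under −SssI, where 6 of 18 upstream CpGs had the same value of 8.11%, had r between −0.00797 and 0.106 with the other pools. Spearman's rho of that profile was 0.456 with ESCs under +SssI, 0.389 and 0.360 with the NP pools and −0.0675 with TET TKO ESCs.

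The composite differed less in TET TKO ESCs, and was lower upstream but not downstream. The WT fragment was at 75.5% and the Sc fragment at 92.1% (medians of 80 and 108 reads), a Δmet of −16.5 points (± 10.7), with 14 lower and 4 higher CpGs against 20.2% and 23.1% of all CpGs tested. In this pool 23.3% of motif pairs had an interval below 0 and 26.7% an HMR. Upstream, Δmet was −24.2 points (± 10.4), and an HMR of 11 CpGs with a mean of −35.6 points ran from −264 to −103 bp. Downstream it was 10.99 points (± 11.2), and the 2 parts differed by −35.1 points (± 15.3). The CpG at 151 bp, the least methylated of the WT composite in NPs, was at 100% in the WT and 42.9% in the Sc fragment, the highest difference of the pair (57.1 points).

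All upstream reads of the composite pair in TET TKO ESCs that could be compared came from run 10, with 72.3% in the WT (80 reads) and 97.4% in the Sc fragment (106 reads), a difference of −25.1 points (± 10.3). The WT value lay below 28 of 31 other Sc fragments of run 10 and above 3. Within the WT fragment 6 of the 18 upstream CpGs had exactly 60.0% methylation. Downstream the runs went opposite ways, with 99.0% in the WT and 57.9% in the Sc fragment in run 9 (41.2 points, ± 13.6) and 79.4% and 86.6% in runs 10+11 (−7.24 points, ± 15.5). The Sc composite in run 9 lay below all 26 other Sc fragments there. Without run 10 only downstream CpGs remained and Δmet was 19.8 points (± 12.7).

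The single OCT4 motif gave no difference that held in direction across pools and runs. Its Δmet was 18.5 points in ESCs under −SssI, −14.6 in ESCs under +SssI, 7.22 in NPs under −SssI, −5.74 in NPs under +SssI and 6.89 in TET TKO ESCs. The interval lay above 0 in the −SssI pools, below 0 in NPs under +SssI, and spanned 0 in the rest.

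The WT OCT4 fragment in ESCs under −SssI was at 56.7% and the Sc fragment at 38.2% (medians of 72 and 230 reads), a Δmet of 18.5 points (± 13.1). There were 12 higher and 2 lower CpGs, against 27.0% and 45.2% of all CpGs in the pool. Motif pairs with an interval above 0 made up 26.7% of this pool. The WT fragment was at 43.1% in run 4 (16 reads) and 63.3% in runs 1+2+5 (56 reads), while the Sc fragment had enough reads only in run 4, at 35.2% (221 reads). Within run 4 the upstream difference was 7.87 points (± 25.1). Without run 4 it turned to −22.8 points (± 23.2), so the direction rested on that run.

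Under +SssI the WT OCT4 fragment of ESCs was at 51.0% and the Sc fragment at 65.6% (medians of 33 and 393 reads), a Δmet of −14.6 points (± 17.7). There were 11 lower CpGs and 1 higher out of 23, in a pool where 48.8% of all CpGs were lower and 13.6% higher. They held an HMR of 3 CpGs from 46 to 151 bp with a mean of −23.5 points, and 60.0% of motif pairs had an HMR. Upstream the WT fragment was at 17.2% in run 4 (17 reads) and 91.3% in run 5 (16 reads). The Sc fragment spread as widely, with 27.8%, 42.4%, 67.3% and 81.0% in runs 3, 6, 4 and 5. The difference was −50.2 points (± 19.3) within run 4 and 10.3 points (± 15.2) within run 5. Without run 4 Δmet was 24.6 points (± 15.2), and without run 5 it was −36.5 points (± 20.6).

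In NPs both OCT4 fragments were highly methylated. Under −SssI the WT fragment was at 93.2% and the Sc fragment at 86.0% (medians of 124 and 1091 reads), a Δmet of 7.22 points (± 4.88), with 9 higher and 3 lower CpGs. Of all CpGs tested in this pool 15.9% were higher and 30.8% lower. The interval lay above 0 for 10% of motif pairs in this pool. Upstream the WT fragment was at 91.7% in runs 2+9+10 and 100% in run 11. The Sc fragment was at 90.3% in runs 2+9+10 but at 4.70% in run 8 (25 reads), so its runs spanned 85.6 points. Within runs the difference was 3.82 points (± 2.49). Leaving out run 9 or run 11 gave 5.33 (± 5.76) and 5.37 points (± 5.66), whose intervals spanned 0.

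Under +SssI the WT OCT4 fragment was at 85.9% and the Sc fragment at 91.6% (medians of 380 and 1231 reads), a Δmet of −5.74 points (± 3.83), with 6 lower and 0 higher CpGs and no HMR. Of all CpGs tested in this pool 35.9% were lower and 9.84% higher. Upstream the WT fragment lay between 83.9% and 96.6% over 4 runs and the Sc fragment between 88.0% and 97.0% over 5 runs, so the ranges overlapped. Downstream the WT fragment was lower, with a Δmet of −11.4 points (± 3.98), and ranged from 67.5% in run 7 to 91.1% in runs 1+11 against 86.6% to 88.4% for the Sc fragment. Without run 7 the Δmet over all CpGs was −2.05 points (± 4.33).

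The WT OCT4 fragment in TET TKO ESCs was at 84.4% and the Sc fragment at 77.6% (medians of 100 and 145 reads). The Δmet of 6.89 points (± 9.83) spanned 0, with 7 higher and 0 lower CpGs, in a pool where 16.7% of motif pairs had an interval above 0. Of all CpGs tested in this pool 23.1% were higher and 20.2% lower. Run 10 held nearly all upstream reads, at 80.3% in the WT and 72.5% in the Sc fragment. Downstream all 4 values per run were above 92%, between 93.0% and 99.4%.

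The composite was set against the single OCT4 motif by the difference of their Δmet values, which takes each motif relative to its own Sc fragment. Composite minus OCT4 was −63.3 points (± 17.5, adjusted p = 5.13e-12) in ESCs under −SssI and −49.6 points (± 18.4, adjusted p = 3.66e-06) in ESCs under +SssI. In NPs it was −43.5 points (± 6.79, adjusted p = 3.19e-35) under −SssI and −20.2 points (± 8.34, adjusted p = 1.19e-05) under +SssI. The value in TET TKO ESCs was −23.4 points (± 14.5, adjusted p = 0.00927). These are Wald tests on reads, adjusted over the 29 other motifs, each of which was set against OCT4. The same test found a more negative Δmet than that of OCT4 for 58.6% of motifs in ESCs under −SssI and 51.7% in NPs under −SssI. In both pools the interval of OCT4 lay above 0. The share was 20.7% in each of the other 3 pools. Among these, Δmet of OCT4 was also positive in TET TKO ESCs, with an interval that spanned 0.

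Single CpGs went the same way. The composite was more negative than OCT4 at 22, 20, 20 and 20 of 23 CpGs in ESCs under −SssI and +SssI and NPs under −SssI and +SssI, and at 15 in TET TKO ESCs. It was more positive at 0, 0, 2, 0 and 4 CpGs. In the same order, 60.4%, 25.9%, 57.3%, 34.2% and 33.1% of the CpGs of all other motifs were more negative than OCT4. The comparison of the WT fragments alone, without the Sc fragments, gave −44.6, −34.9, −37.2 and −25.1 points in the 4 pools of wild-type cells and −8.90 points in TET TKO ESCs. The Sc fragments of the pairs also differed, by 18.7, 14.7, 6.31, −4.93 and 14.5 points (composite minus OCT4).

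The comparison with OCT4 rested on single runs in 3 pools and changed in size with 1 run in a further pool. In ESCs under −SssI no value remained without run 4, which held nearly all WT reads of the composite. In ESCs under +SssI it was −16.4 points (± 33.4) without run 5 and −90.3 points (± 16.0) without run 4, the runs in which the WT OCT4 fragment was at 91.3% and 17.2%. For TET TKO ESCs it was 16.0 points (± 13.5) without run 10, when only downstream CpGs could be compared. For NPs under −SssI it was −81.3 points (± 22.6) without run 7, again over downstream CpGs. In NPs under +SssI it stayed between −21.0 and −18.8 points with any 1 run left out.

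Beside the single SOX2 motif, whose Δmet was −18.7, −17.3, −7.41, 3.63 and −15.6 points in the 5 pools in the same order, the composite was lower in the wild-type cells. The difference was −26.1 points (± 18.1) and −46.9 points (± 17.1) in ESCs under −SssI and +SssI, and −28.9 points (± 6.71) and −29.6 points (± 10.8) in NPs. With 1 run left out it was −47.9 points in ESCs under −SssI without run 7, −17.5 points (± 22.4) in ESCs under +SssI without run 5 and −59.4 points (± 22.4) in NPs under −SssI without run 7. The composite and SOX2 differed in TET TKO ESCs by −0.931 points (± 14.0), an interval wide enough to hold a difference of over 10 points either way. The sum of the Δmet values of OCT4 and SOX2 was −0.222, −31.9, −0.190 and −2.10 points in the wild-type pools, and the composite minus this sum was −44.6 (± 22.3), −32.3 (± 24.6), −36.1 (± 8.30) and −23.8 points (± 11.5). In TET TKO ESCs it differed from the sum by −7.82 points (± 17.1). In ESCs the SOX2 fragments lay mainly in different runs upstream, WT in run 4 and Sc in run 7 (−SssI) or 5 (+SssI). With run as a term (upstream CpGs), SOX2 was at 6.87 (SE 19.5), 9.74 (SE 21.7), −8.06 (SE 6.04) and −4.40 points (SE 14.0). These estimates, for the wild-type pools in the same order, were not called. The OCT4 value in the sum for ESCs under −SssI turned to −22.8 points without run 4.

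The NANOG pair had no called Δmet in ESCs, and single CpGs were called in both directions. Under −SssI the WT fragment was at 56.4% and the Sc fragment at 46.2% (medians of 172 and 33 reads), a Δmet of 10.2 points (± 18.6). There were 2 lower and 6 higher CpGs, against 45.2% and 27.0% of all CpGs in the pool. Within run 4 the WT fragment was higher upstream (52.2% against 29.3%, 22.9 points, ± 20.4) and at 20% against 42.0% downstream (−22.0 points, ± 25.7). Without run 7 Δmet was −1.25 points (± 19.4).

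Under +SssI the NANOG pair of ESCs had the deepest WT fragment of the 3, with a median of 1541 reads. It was at 78.2% and the Sc fragment at 75.4% (403 reads), a Δmet of 2.77 points (± 4.68), with 4 lower and 7 higher CpGs, against 48.8% and 13.6% of all CpGs in the pool. The lowest difference was −20.7 points at −208 bp and the highest 32.2 points at 151 bp. Upstream the WT fragment was at 78.7% in run 7 and 63.9% in run 5 (12 reads), and the Sc fragment at 71.2%, 77.7% and 44.6% in runs 3, 6 and 5. Those ranges overlapped. Without run 7, which held nearly all WT reads, Δmet was −10.9 points (± 26.3).

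In NPs the difference of the NANOG pair was larger downstream than upstream. Under −SssI the WT fragment was at 91.7% and the Sc fragment at 95.4% (medians of 204 and 108 reads), a Δmet of −3.72 points (± 5.48). Over the upstream CpGs it averaged −0.0969 points (± 5.07), with calls in both directions (33.7 points at −166 bp, −17.6 at −101 bp and −13.5 at −291 bp), and downstream it was −16.7 points (± 8.58), with an HMR of 4 CpGs from 37 to 151 bp and a mean of −20.4 points. Within run 9 the downstream values were 78.4% in the WT and 96.9% in the Sc fragment (−18.5 points, ± 9.90). In run 9 the Sc NANOG fragment was the most methylated of all, and the WT value lay below 23 of 26 other Sc fragments.

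Under +SssI the WT NANOG fragment was at 82.9% and the Sc fragment at 94.5% (medians of 63 and 116 reads), a Δmet of −11.7 points (± 10.2). The 11 lower CpGs and 1 higher CpG included all 5 downstream CpGs, an HMR from 37 to 252 bp with a mean of −31.5 points (± 7.15), while upstream Δmet was −6.16 points (± 8.96). The other 6 lower CpGs lay upstream, the lowest at −208 bp (−32.4 points), and the higher CpG was at −242 bp (39.2 points). Of all CpGs tested in this pool 35.9% were lower and 9.84% higher. The downstream WT values differed between runs, with 59.8% in runs 1+11 (81 reads), 8.57% in run 8 (28 reads) and 80.3% in run 7 (109 reads), and the Sc fragment was at 94.8% in run 6 (179 reads). No run held both fragments. Without run 8 Δmet was −9.93 points (± 9.83), and without run 7 only downstream CpGs remained, at −48.1 points (± 9.84). HMRs were found in 33.3% of the motif pairs in NPs under −SssI and in 46.7% under +SssI.

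The WT NANOG fragment in TET TKO ESCs was at 97.6% and the Sc fragment at 98.02%, a Δmet of −0.465 points (± 3.86). Downstream it was −7.36 points (± 3.93), with the lowest difference, −18.8 points, at 151 bp. The downstream part held 2 lower CpGs, against 20.2% of all CpGs tested in the pool. Runs 10+11 gave 86.7% against 99.6% there (−12.8 points, ± 6.46), and in run 9 the WT fragment was at 99.3%. The CpG at 151 bp was also the lowest of the NANOG pair in both NP pools, with −30.4 and −55.5 points.

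With run as a term, 0 of the 8 OCT4 and NANOG estimates in the 4 pools of wild-type cells were called, and 0 had an unadjusted p under 0.05. The estimates for OCT4 were −5.86, −12.8, 3.97 and −10.98 points in ESCs under −SssI and +SssI and NPs under −SssI and +SssI, and those for NANOG 20.04, −12.5, 0.369 and −16.9 points. With equal weights for all runs the OCT4 estimate in NPs under −SssI was 43.4 points (adjusted p = 0.0045). In that pool 2 runs held the Sc OCT4 fragment upstream, and 1 of them was run 8 at 4.70%. NANOG and OCT4 differed from each other in Δmet only in NPs under −SssI, by −10.9 points (± 7.34, adjusted p = 0.00724).

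Differences between pools were tested on the Δmet values themselves. For the composite, Δmet was less negative in NPs than in ESCs under +SssI by 38.2 points (± 8.94, adjusted p = 7.73e-16), with 21 CpGs less negative and 0 more negative. The WT fragment was higher by 44.6 points in NPs and the Sc fragment by 6.35 points. Of all motif pairs 36.7% were less negative in this comparison and 20% more negative, and of all CpGs 41.1% and 23.2%. The difference was 27.0 points (± 27.4) without run 5 of ESCs, in which the Sc composite had 400 upstream reads, against 12 in run 4.

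Under −SssI the composite differed between NPs and ESCs by 8.53 points (± 12.5, adjusted p = 0.237). Both fragments were more methylated in NPs, the WT by 44.0 and the Sc by 35.4 points. There were 10 CpGs with a less negative difference in NPs and 4 with a more negative one, against 40.1% and 31.8% of all CpGs. With a minimum of 20 reads per CpG, which removed the thinly covered downstream CpGs of ESCs, the difference was 18.7 points (± 11.3), and without run 7 of NPs it was −38.8 points (± 38.3). The direction therefore depended on the CpGs and runs that entered.

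In TET TKO ESCs against ESCs under +SssI, Δmet of the composite was less negative by 47.7 points (± 11.8, adjusted p = 2.81e-14), with 20 CpGs less negative and 0 more negative, against 43.3% of motif pairs and 50% of CpGs less negative, and 13.3% and 17.6% more negative. The WT fragment was higher by 59.4 points and the Sc fragment by 11.7 points. With any 1 run of either pool left out, the difference lay between 36.4 and 79.6 points. For the SOX2 pair the same difference was 1.67 points (± 18.7), for OCT4 21.5 points (± 20.2, adjusted p = 0.0623) and for NANOG −3.23 points (± 6.07).

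Between the −SssI and +SssI conditions, Δmet of the composite was more negative under +SssI in ESCs (−19.4 points, ± 12.6, adjusted p = 0.00554), against 34.5% of motif pairs that were more negative and 24.1% that were less. At single CpGs the difference was more negative at 16 and less negative at 1, against 38.5% and 27.2% of all CpGs. The WT fragment differed by 4.08 points and the Sc fragment by 23.4 points, and without run 5 of the +SssI pool the difference was −8.13 points (± 28.8). In NPs Δmet was less negative under +SssI by 10.3 points (± 8.78, adjusted p = 0.0526), which was not called, while 13.8% of motif pairs were called less and 17.2% more negative. Single CpGs of the composite were less negative at 11 and more negative at 1, against 27.4% and 35.2% of all CpGs. OCT4 was more negative under +SssI in ESCs (−33.1 points, ± 22.0, adjusted p = 0.00617) and in NPs (−13.0 points, ± 6.20, adjusted p = 0.000246). In ESCs that difference for OCT4 ranged from −55.0 to 8.98 points with 1 run of either pool left out. With the mean of all Sc fragments as reference, the OCT4 difference was −17.4 (± 22.8) in ESCs and −6.34 points (± 9.14) in NPs. NANOG did not pass in either cell type, with −7.39 (± 19.1) and −7.95 points (± 11.6), but under +SssI was more negative in NPs than in ESCs (−14.4 points, ± 11.2, adjusted p = 0.0248). Without run 7 of ESCs that difference was 4.77 points.

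Single ESC lines, each a picked colony, also carried the composite. A line with the untreated WT fragment had 16.1% methylation and a line with the untreated Sc fragment 71.8%, a Δmet of −55.7 points with 23 of 23 CpGs below 0, from 1 library each and with no test. A line with the premethylated WT fragment, treated with non-targeting siRNA, had 24.3% over the 18 upstream CpGs, and the premethylated Sc line 83.6%.

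The RNA-seq libraries give the levels of the factors that these motifs are for. Libraries held between 20519702 and 23976914 counts in ESCs and NPs and between 80704741 and 93210102 in TET TKO ESCs. In NPs, Pou5f1 and Nanog were almost absent and Sox2 was lower. Pou5f1 (ENSMUSG00000024406, chromosome 17, 35506018 to 35510772 on GRCm38) had 388, 415 and 376 RPKM in ESCs and 0.940, 1.85 and 0.480 in NPs, a log2 fold change of −8.51 (SE 0.42, adjusted p = 1.54e-06, edgeR quasi-likelihood test). Nanog (ENSMUSG00000012396, chromosome 6, 122707489 to 122714633) had 286, 295 and 268 RPKM in ESCs and 0.879, 1.56 and 0.346 in NPs (log2 fold change −8.26, adjusted p = 1.90e-06). Sox2 (ENSMUSG00000074637, chromosome 3, 34650405 to 34652461) had 214, 220 and 245 RPKM in ESCs and 62.5, 49.2 and 50.3 in NPs (log2 fold change −2.09, SE 0.13, adjusted p = 4.50e-06). The libraries of the 2 cell types did not overlap for any of the 3 genes, but the share of all genes without overlap was not counted. A gene was called at an adjusted p under 0.001 and a fold of at least 3, which 9.98% of 15181 genes passed as lower in NPs and 12.4% as higher. The labels do not say whether libraries came from separate cultures, so these p-values measure only the spread between the libraries, and fewer cells of a type cannot be told apart from less RNA per cell.

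Other factors of these families were higher in NPs. Of 6 other POU factors that bind the octamer, 4 were called higher. Pou3f2, a brain POU factor, rose from a mean of 0.0507 to 21.3 RPKM (log2 fold change 8.68), Pou3f3 to 17.8 RPKM (7.96) and Pou3f4 to 14.2 RPKM (6.67). Pou2f2 reached 6.80 RPKM (2.64), a call that was lost without ESC replicate 3 (adjusted p = 0.00111, edgeR), while Pou2f1 (log2 fold change −1.0) and Pou3f1 (−0.25) were not called. Of the SOXB1 factors, which share the HMG box of SOX2, Sox3 rose from 2.14 to 61.5 RPKM (log2 fold change 4.83) and Sox1 from 0.612 to 11.9 RPKM (4.26). The mean of Sox2 in NPs was 54.0 RPKM (SD 7.40), and that of Sox3 61.5 (SD 27.1), within the spread of the latter.

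The TET enzymes and the cell type markers were read as checks on the labels. In NPs all 5 ESC markers were called lower and all 5 neural progenitor markers higher, but 4 of these 10 genes (Pou5f1, Nanog, Sox1 and Pou3f2) are already described above. Of 4 endoderm markers 2 were called higher, Gata6 and Sox17 at 4.15 and 3.83 RPKM, while Gata4 was at 2.08 RPKM (log2 fold change 1.28, adjusted p = 0.0284, edgeR) and Afp was below the filter. Their part in the NP values was not tested. Tet1 and Tet2 fell in NPs (log2 fold changes −3.99 and −2.54), and Tet3 rose (3.43). Transcripts of Tet1 (13.5 RPKM, log2 fold change −2.38) and Tet2 (2.48 RPKM, −3.05) in TET TKO ESCs were called lower but still counted, and Tet3 was under 1 RPKM in TET TKO ESCs and in ESCs. In the same comparison 1 of 5 ESC markers was called lower, Zfp42, with 42.7, 46.0 and 63.2 RPKM against 309, 298 and 306 in ESCs (log2 fold change −2.70, adjusted p = 7.79e-05, edgeR). Of 5 neural progenitor markers 2 could be tested and 0 were called, with log2 fold changes of 1.33 for Nes (adjusted p = 0.00572, edgeR) and 1.38 for Sox1 (adjusted p = 0.0593, edgeR), and all 4 endoderm markers were below the filter. The part of Zfp42 and Nes in the methylation values was not tested. Counts over a whole gene do not show whether the edited part of it was read.

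Between TET TKO and wild-type ESCs 0 of the 3 factors were called by edgeR or by DESeq2, and 1, Pou5f1, had an unadjusted p under 0.05 (0.0194 by edgeR). Pou5f1 had 335, 343 and 209 RPKM in TET TKO ESCs (log2 fold change −0.53, adjusted p = 0.0554), below all 3 ESC libraries. Sox2 had 224, 204 and 276 RPKM (−0.06, adjusted p = 0.733) and Nanog 146, 210 and 373 RPKM (−0.33, adjusted p = 0.422), both overlapping the ESC libraries. Here 1.33% of 13971 genes were called lower and 0.845% higher, and the share of all genes whose libraries did not overlap was not counted. Among the other POU factors, Pou3f1 had 6.57, 9.13 and 2.97 RPKM against 1.501, 1.46 and 1.26 in ESCs (2.02, adjusted p = 0.00643), which edgeR did not call and DESeq2 did. Reads were counted without strand. How reads over Sox2 and the overlapping Sox2ot were assigned was not tested, and pseudogenes of Pou5f1 and Nanog may have taken or lent reads.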

How the data were processed

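Methylation around the motifs was measured by Hi-TransMet in 5 pools, and RNA by RNA-seq in 9 libraries. For each pool and run the authors deposited, at every CpG of every construct, the read count and the methylated read count, made by trimming, assignment to a construct by its barcodes, Bismark alignment to FR1 and deduplication by UMI. Per the paper, reads were also filtered by their non-CG methylation, except in the libraries from TET TKO cells. For RNA-seq they deposited raw counts per gene (STAR, featureCounts 1.6.2 without strand, Ensembl 89, GRCm38, per the file headers). The submitters' processing notes name Trim Galore 0.4.4, Bismark 0.20.0, Trimmomatic 0.38, STAR 2.6.1b and R 3.6.2. Deposited percentages per CpG were not used here.

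Constructs were taken by name. The 2 samples of ESCs under −SssI, and of NPs under +SssI, share a table each, whose labels do not say which run belongs to which sample, and were entered as 1 pool. CpGs from −300 to 260 bp with at least 10 reads in both fragments were kept, and reads were summed over runs. Where the counts of 2 runs over at least 20 fragments agreed within sampling noise, they were merged into 1 in values per run. The smaller the median read number of a fragment, the wider the interval. Δmet intervals use the normal approximation, and differences of Δmet were tested by Wald's z with 1 methylated and 1 unmethylated read added to each fragment for single CpGs. All tests ran on every motif pair of a pool, with Benjamini-Hochberg adjustment over all of them.

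RNA was compared with edgeR 4.0.16 in R 4.3.3 (TMM, quasi-likelihood, genes of at least 1 RPKM in at least 1 library), and with DESeq2 1.42.0 as an alternative. RPKM values were computed here from the deposited counts. Replicate numbers were not used to pair the libraries. Deviations of same-numbered libraries correlated at −0.06, 0.01 and −0.13 (NP and ESC) and −0.09, 0.34 and 0.24 (TET TKO and ESC). In the latter comparison these values do not decide whether the numbers pair the libraries. There the replicate block gave 253 higher and 335 lower genes, against 118 and 186 without it. Methylation was analysed with pandas 2.3.3, scipy 1.17.1 and numpy 2.4.6 under Python 3.11.15, after the tests had been run on simulated data.

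The CpGs named are the ends of HMRs and the lowest and highest difference of a construct, and those nearest the motif, at 151 bp or at −235 bp in other pools and single upstream CpGs of NANOG in NPs were added after their values were seen. The genes named are the factors of the motifs, other octamer-binding POU and SOXB1 factors, the TET genes and cell type markers. The members, lists and tests were chosen with earlier results of these data known. The alternatives were other read minimums, the share of methylated calls, the mean of all Sc fragments as reference, look-alike runs counted once, comparison within runs, stricter HMR criteria and each run or library left out. Equal weights in the run fit, the alternatives for composite against SOX2 and leaving out runs of either pool in comparisons between pools were chosen after seeing the data, and so was the count of runs in which a fragment lay below all other Sc fragments. The motif, barcode and FR1 sequences were not used here.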

Additional observations from a re-analysis of the deposited data

Results flagged for a closer look

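The following differences of Δmet between pools passed the test of the difference itself. For the composite OCT4SOX2, Δmet in ESCs was lower under +SssI than under −SssI (−19.4 points, ± 12.6), it was higher in NPs than in ESCs under +SssI by 38.2 points, and it was higher in TET TKO ESCs than in ESCs by 47.7 points. For OCT4 the values under +SssI minus −SssI were −33.1 points in ESCs and −13.0 points in NPs. For NANOG, NPs minus ESCs under +SssI gave −14.4 points. With 1 run of either pool left out, the composite ranged from −27.1 to −8.13 points between the ESC pools, where without run 5 of the +SssI pool it no longer passed, from 27.0 to 52.8 between NPs and ESCs, where without run 5 of ESCs it no longer passed, and from 36.4 to 79.6 between TET TKO ESCs and ESCs. OCT4 ranged from −55.0 to 8.98 points in ESCs and from −15.4 to −9.27 in NPs, and NANOG from −51.2 to 4.77 points.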

How the results depend on the processing

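The Δmet of the composite over pooled reads kept its direction and call in the 4 pools of wild-type cells under each alternative to it that gave a value. With run as a term it was not called in ESCs under −SssI (−22.6 points), and with equal weights in that fit not in NPs under −SssI either. With 1 run left out it lay between −49.8 and −43.3 points in ESCs under −SssI, where no value remained without run 4, between −77.5 and −52.9 in ESCs under +SssI, −63.8 and −35.4 in NPs under −SssI, and −27.3 and −22.4 in NPs under +SssI. Of 560 values under other settings 502 kept direction and side of the threshold, or stayed within the allowed range, and 11 reversed. Of 592 values with 1 run or library left out 541 did and 21 reversed. The cause of the changes below was not tested.

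With the mean of all Sc fragments as reference, Δmet of OCT4 was 0.581 points in ESCs under −SssI, 5.47 and −0.867 in NPs under −SssI and +SssI and −4.20 in TET TKO ESCs. That of NANOG was 10.4 in ESCs under +SssI, 3.91 and −3.88 in NPs under −SssI and +SssI and 8.92 in TET TKO ESCs. In TET TKO ESCs the composite minus OCT4 was −8.90 and the composite minus SOX2 3.94 points. Between pools, +SssI minus −SssI gave −7.63 (composite, ESCs), 10.1 (NANOG, ESCs) and 5.72 points (composite, NPs), and NPs minus ESCs under −SssI gave 4.89 (OCT4) and 3.63 points (NANOG). For OCT4, +SssI minus −SssI gave −17.4 points in ESCs and −6.34 in NPs, and TET TKO ESCs minus ESCs gave 12.6 points.

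Within runs, Δmet was 8.11 (OCT4, ESCs −SssI), −20.4 (OCT4, ESCs +SssI) and −4.06 points (NANOG, NPs −SssI), and the composite in NPs under −SssI kept 5 lower CpGs, since only its 5 downstream CpGs could be compared. The composite in ESCs and NPs under +SssI and NANOG in NPs under +SssI had no such value. As a share of methylated calls, the composite minus SOX2 in TET TKO ESCs was 0.505, the composite between NP pools 5.87 and between NPs and ESCs under −SssI 13.3 points. With look-alike runs counted once, composite minus SOX2 in TET TKO ESCs was 1.001 points and the composite had 2 HMRs in NPs under −SssI. At 20 reads the composite between NPs and ESCs under −SssI was 18.7 points. With a threshold of −20 points it had 2, 2 and 1 HMRs in ESCs under −SssI and NPs under −SssI and +SssI, and 12 lower CpGs in the last. With equal weights in the run fit, OCT4 was 5.82 in ESCs under +SssI and 43.4 in NPs under −SssI, and the composite −28.6 points in NPs under −SssI.

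With 1 run left out, Δmet of OCT4 ranged from −22.8 to 19.0 points in ESCs under −SssI, −36.5 to 24.6 in ESCs under +SssI, 5.33 to 8.80 in NPs under −SssI and −8.14 to −2.05 in NPs under +SssI. That of NANOG ranged from −1.25 to 18.3, from −10.9 to 12.5 in the ESC pools and from −6.42 to 0.270 in TET TKO ESCs, where the composite ranged from −20.5 to 19.8. Composite minus OCT4 ranged from −90.3 to −16.4 in ESCs under +SssI and −28.0 to 16.0 in TET TKO ESCs, and composite minus SOX2 from −55.9 to −17.5 and −4.93 to 37.4. Between +SssI and −SssI the ranges were −55.0 to 8.98 (OCT4, ESCs), −27.1 to −8.13 (composite, ESCs), −23.7 to 4.02 (NANOG, ESCs) and 8.96 to 33.2 points (composite, NPs). Between NPs and ESCs they were −15.9 to 27.0 (OCT4) and −38.8 to 18.1 (composite) under −SssI, and −28.7 to 30.8 (OCT4), 27.0 to 52.8 (composite) and −51.2 to 4.77 (NANOG) under +SssI. Between TET TKO ESCs and ESCs they were −17.0 to 43.4 (OCT4) and −13.0 to 12.4 (NANOG).

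In RNA, NPs had 2588 lower genes without a filter on low counts. Against ESCs, TET TKO ESCs had 407 higher and 522 lower genes by DESeq2, 574 and 689 without a filter, 253 and 335 with the replicate block, and 12 to 116 and 38 to 182 with 1 library left out. The replicate block gave 1855 higher and 1504 lower genes in NPs. The log2 fold change of Sox2 in TET TKO ESCs was 0.042 without a filter and ranged from −0.195 to 0.047 with 1 library left out, that of Sox3 from −0.12 to 0.70 and that of Tdgf1 from −0.076 to 0.22. The 6 OCT4, composite and NANOG pairs with a fragment at a median of 33 to 80 reads had intervals of ± 10.2 to ± 18.6 points. Each pool was entered as 1 unit, although the paper pooled biological and technical replicates.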

Other observations

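In each NP pool, 1 member fragment was at a very low level in run 8. In NPs under −SssI the Sc OCT4 fragment was at 4.70% upstream in run 8 (25 reads), where the 18 other Sc fragments had a median of 92.4% and a lowest value of 0.00%. In NPs under +SssI the WT NANOG fragment was at 8.57% downstream in run 8 (28 reads), where the 24 other Sc fragments lay between 60.0% and 100%.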
